A study of Homo sapiens with 136 samples.

Results

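Autophagosomes are built by a series of protein complexes whose genes are described here at the level of their transcripts. The machinery was taken as 38 genes, listed by symbol for their known roles among the 25435 symbols counted in the study, with earlier results of these data known. They were 5 genes of the ULK1 complex, 7 of the Vps34 complex, 8 of membrane growth, 10 of the conjugation systems and 8 of transport and fusion. All 38 passed the filter on low counts in AsPC-1 and 37 passed in PANC-1, where ATG2B, a lipid transfer protein, was too low to be tested. Transcripts were counted by PLATE-Seq, which prepares barcoded libraries from cells lysed in 96-well plates, in these 2 human pancreatic ductal adenocarcinoma lines. Drugs were given for 24 h to cells that had been in culture for 24 h. Every well received an autophagy inhibitor, which was either the Vps34 inhibitor Compound 19 or hydroxychloroquine, a lysosomal weak base. In each line and for each of these, 10 libraries also had a MEK inhibitor (refametinib, selumetinib, binimetinib, cobimetinib or trametinib), 8 an ERK inhibitor (ravoxertinib, AZD0364, ulixertinib or SCH772984), 10 a RAF inhibitor (GDC-0879, PLX8394, RAF709, dabrafenib or sorafenib) and 6 no kinase inhibitor. The last are called alone libraries below. Each drug combination had 2 libraries, on what a letter in their titles was taken to mark as plates A and B. Doses were those at which 80% of cells were viable after 48 h of the single drug, and no concentrations were given, so single drugs are set side by side without a test between them. Neither untreated cells nor a kinase inhibitor without an autophagy inhibitor were in the design, so every value below is relative to cells that already had an autophagy inhibitor.

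In autophagy the ULK1 kinase complex, which responds to nutrients and to mTORC1 and AMPK, activates the Vps34 complex, and Vps34 makes the lipid PI3P on a membrane next to the endoplasmic reticulum. PI3P binding proteins and lipid transfer proteins then extend the membrane, while a pair of ubiquitin-like systems joins ATG12 to ATG5 and LC3 to lipid. The closed autophagosome is carried along microtubules and fuses with the lysosome through SNARE proteins and the GTPase RAB7A. Hydroxychloroquine acts at the end of this route, by impairing lysosomal acidification and fusion, whereas a Vps34 inhibitor acts near its start. Pancreatic cancer cells are known for high autophagy, and blocking RAF, MEK or ERK signalling has been described to raise it further.

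The promoters of 4 members on which the results below turn are printed here, as 250 bases before the transcription start, 5′ to 3′ on the gene's strand, from RefSeq on GRCh38.p14. ATG12 and ATG16L1, whose products belong to 1 complex with ATG5, had the largest number of calls among single drugs in AsPC-1. WDR45 and VMP1 belong to membrane growth, and WDR45 responded to the autophagy inhibitors differently in the 2 lines. Capitals mark matches to an AP-1 or an ETS motif, and no searched motif was found in these windows of ATG12 or ATG16L1. WDR45 had another promoter window, chrX:49101179-49101428, which is not printed and held no searched motif.
ATG12, chr5:115841566-115841815, minus strand: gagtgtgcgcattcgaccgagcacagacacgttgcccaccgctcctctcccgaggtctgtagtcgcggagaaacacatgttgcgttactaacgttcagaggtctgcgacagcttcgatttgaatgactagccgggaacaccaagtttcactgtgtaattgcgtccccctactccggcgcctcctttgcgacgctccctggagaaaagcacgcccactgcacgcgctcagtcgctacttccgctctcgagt
ATG16L1, chr2:233251423-233251672, plus strand: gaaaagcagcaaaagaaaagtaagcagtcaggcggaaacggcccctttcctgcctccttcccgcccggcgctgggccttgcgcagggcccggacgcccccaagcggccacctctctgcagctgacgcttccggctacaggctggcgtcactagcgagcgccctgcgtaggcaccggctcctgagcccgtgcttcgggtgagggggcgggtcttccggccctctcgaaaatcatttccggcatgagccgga
WDR45, chrX:49079888-49080137, minus strand: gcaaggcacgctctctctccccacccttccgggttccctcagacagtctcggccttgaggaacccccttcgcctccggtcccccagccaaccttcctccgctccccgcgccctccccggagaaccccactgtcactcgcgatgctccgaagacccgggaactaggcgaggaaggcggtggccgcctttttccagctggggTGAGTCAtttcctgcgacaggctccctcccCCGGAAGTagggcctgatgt
VMP1, chr17:59707404-59707653, plus strand: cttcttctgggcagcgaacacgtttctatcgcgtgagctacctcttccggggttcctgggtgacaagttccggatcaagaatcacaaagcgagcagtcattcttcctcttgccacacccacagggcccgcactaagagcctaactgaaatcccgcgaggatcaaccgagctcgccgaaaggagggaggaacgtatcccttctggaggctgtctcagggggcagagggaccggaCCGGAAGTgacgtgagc
Promoters were matched for 33 of the 38 members, which gave 39 windows, and 5 motifs were searched on both strands. The AP-1 motif TGACTCA was in windows of WDR45 and ZFYVE1 and in 4.20% of 35116 RefSeq promoters of this length. The ETS motif CCGGAAGT was in windows of ATG4C, PIK3C3, PLEKHM1, TECPR1, VMP1 and WDR45, against 3.42% of all promoters. The CLEAR motif TCACGTGA of the lysosomal regulator TFEB was in the NRBF2 window and in 0.854% of promoters, and the E-box CACGTG that lies within it was in those of ATG14, ATG3, NRBF2 and SNAP29 and in 6.34% of promoters. The CRE motif TGACGTCA was in the NRBF2 window and in 1.65% of promoters. A match is a description of these letters and not a binding site.

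Library totals ran from 1419228 to 5871860 counts, and a member had a median of 48.5 counts per library in AsPC-1 and 52.5 in PANC-1. Medians under 10 counts were found for ATG101, ATG2B, ATG9A, ZFYVE1, ATG4D, EPG5 and FYCO1 in AsPC-1, and for ATG101, ATG2B, ATG9A, ATG4D and EPG5 in PANC-1. Depth moved with the autophagy inhibitor, except in the alone libraries of AsPC-1. Alone, the median total was 3552904 counts with the Vps34 inhibitor and 3543437.5 with hydroxychloroquine in AsPC-1, and 3514980 and 4476793.5 in PANC-1. With kinase inhibitors, the median total was 2894344 counts with the Vps34 inhibitor and 3587384 with hydroxychloroquine in AsPC-1, and 3034230.5 and 4214709.5 in PANC-1. The part of this gap in the comparisons below was not tested. As a check of the labels, 9 ERK target genes summed to a median of 320 CPM (counts scaled to the library total) with MEK, 257 with ERK and 624 with RAF inhibitors, against 870 alone, in AsPC-1, and to 229, 242 and 626, against 605 alone, in PANC-1. In AsPC-1 alone libraries this sum was 688 to 814 CPM with the Vps34 inhibitor and 926 to 1059 CPM with hydroxychloroquine. In PANC-1 alone libraries it was 490 to 679 and 597 to 719 CPM, with overlap. The 4 epithelial markers, all detected, summed to 4331 to 7678 CPM with MEK and 4777 to 6492 CPM with ERK inhibitors, against 2911 to 4005 CPM alone, in AsPC-1, where the groups did not overlap. In PANC-1 they summed to 316 to 645 CPM with MEK and 350 to 542 CPM with ERK inhibitors, against 563 to 748 CPM alone. Among alone libraries the epithelial sum was 2911 to 3264 CPM with the Vps34 inhibitor and 3715 to 4005 CPM with hydroxychloroquine in AsPC-1. It was 563 to 644 and 669 to 748 CPM in PANC-1. Immune markers stayed at or below 12.9 CPM and endothelial ones at or below 2.97 CPM in every library. The 4 fibroblast markers summed to 73.7 to 246 CPM with MEK inhibitors and 88.0 to 281 CPM with ERK inhibitors, against 43.3 to 84.7 CPM alone, in AsPC-1, with LUM higher by 1.27 ± 0.10 and 1.43 ± 0.11 on the log2 scale. In PANC-1 they summed to 51.5 to 117 CPM with MEK and 57.0 to 95.8 CPM with ERK inhibitors, against 35.4 to 63.1 CPM alone. The part of these marker shifts in the results below, for the classes or the autophagy inhibitors, was not tested in either line. In such bulk libraries, fewer cells and less RNA per cell cannot be told apart.

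Levels are CPM, and differences are log2 fold changes ± standard error from edgeR's quasi-likelihood test with plate as a term, called at a Benjamini-Hochberg adjusted p under 0.05 over all genes tested. Values within a plate come from fits in which the drugs of a class served as replicates, so the spread between drugs entered their error. Counting was not stated to use strand. Where a called member shares exon bases with another gene that had counts, that gene is named beside at least 1 of the results it touches. Processed or other pseudogenes of BECN1, NRBF2, WDR45, ATG3, ATG4A, ATG12 and PLEKHM1 are annotated but had no row of their own, so counts of these members are uncertain to that extent.

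**Figure D1:**
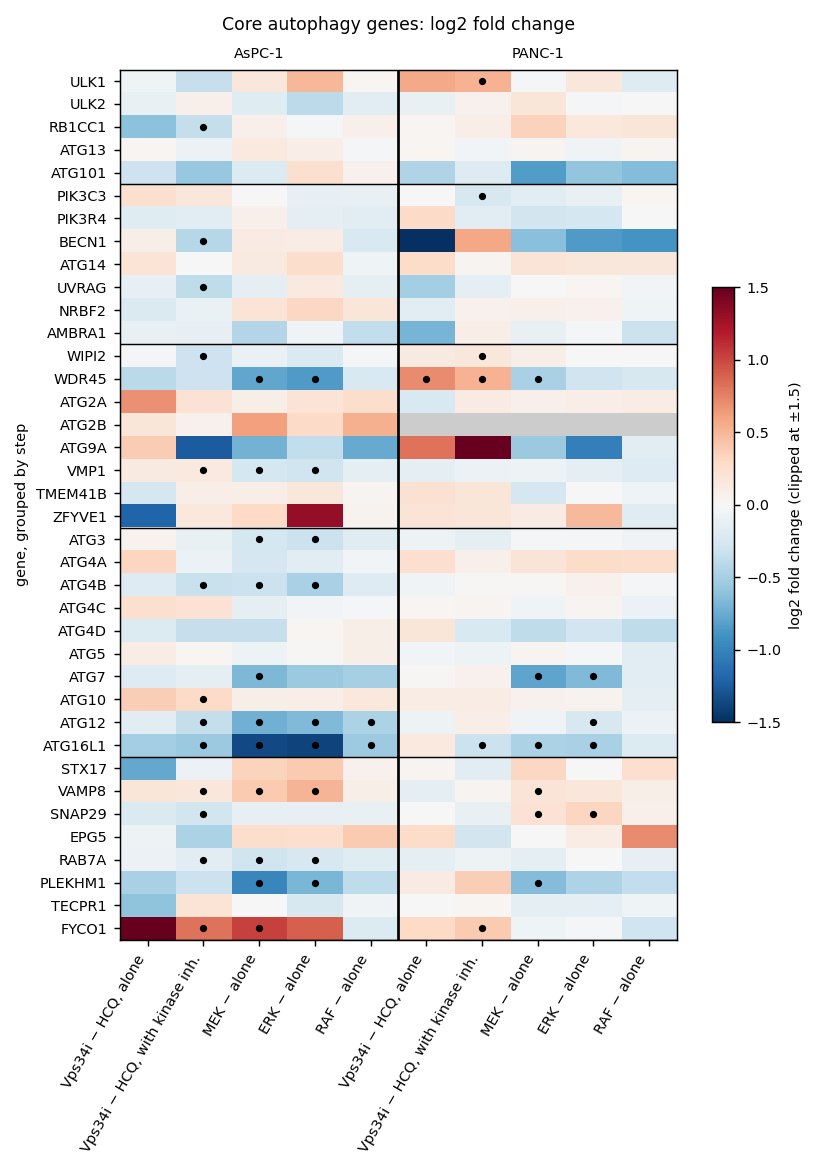
Log2 fold changes of the 38 members, grouped by step from the ULK1 complex to fusion, for the Vps34 inhibitor against hydroxychloroquine (alone and under kinase inhibitors) and for MEK, ERK and RAF inhibitors against alone libraries, in AsPC-1 and PANC-1. Colour is the log2 fold change, limited to 1.5 in either direction, dots mark calls, and grey marks genes not tested; dots for the kinase inhibitor classes lie in membrane growth, conjugation and fusion, with none in the ULK1 or Vps34 complex.

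Between the autophagy inhibitors given alone, few members were called. With 6 libraries per group, the lack of calls does not show that the differences were small. In AsPC-1, 0 of 38 were called with edgeR, against 5.93% of all genes, while 6 members had an unadjusted p under 0.05 and DESeq2 called 1, TECPR1. The median difference, Vps34 inhibitor minus hydroxychloroquine, was −0.10 over the members and 0.01 over all genes on the log2 scale. TECPR1, which tethers autophagosomes to lysosomes, had 11.6, 14.9 and 22.5 CPM (lowest, median and highest of 6) with the Vps34 inhibitor and 21.3, 23.9 and 30.3 CPM with hydroxychloroquine. The highest Vps34 inhibitor library overlapped the lowest of the other group, and the difference of −0.60 ± 0.20 did not pass (adjusted p = 0.0609). STX17, the SNARE of the autophagosome, had 2.42, 4.37 and 5.26 CPM with the Vps34 inhibitor and 5.62, 7.21 and 10.7 CPM with hydroxychloroquine. These groups did not overlap, yet at such counts the difference of −0.76 ± 0.34 did not pass either (adjusted p = 0.21). ATG16L1 differed by −0.51 ± 0.18 (adjusted p = 0.083) and ATG12 by −0.17 ± 0.09 (adjusted p = 0.351). With hydroxychloroquine alone library 2 left out, 1 member was called (ATG16L1). With Vps34 inhibitor alone library 3 left out, with the alone libraries fitted by themselves or with no scaling factors, 2 were called (ATG16L1 and TECPR1).

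In PANC-1 alone libraries, 1 of 37 members rose with the Vps34 inhibitor, against 2.49% of all genes called. This was WDR45, a PI3P binding protein that works with ATG2 at the growing membrane, with 11.5, 13.8 and 21.3 CPM in 6 Vps34 inhibitor libraries and 5.40, 7.74 and 14.3 CPM in 6 hydroxychloroquine libraries. The groups overlapped, and WDR45 differed by 0.71 ± 0.20 (adjusted p = 0.0403), by 0.97 within plate A and 0.54 within plate B. This call was lost within either plate, without the plate term and under 10 further settings, among them without any 1 of 8 alone libraries (hydroxychloroquine 1, 2, 3 and 5, Vps34 inhibitor 2, 3, 4 and 5). ULK1, the kinase that starts autophagy, had 16.2, 20.0 and 21.5 CPM with the Vps34 inhibitor and 8.49, 13.2 and 16.9 CPM with hydroxychloroquine, a difference of 0.57 ± 0.18 that did not pass (adjusted p = 0.0756). BECN1, the scaffold of the Vps34 complex, reached 150 CPM in 1 hydroxychloroquine alone library and 212 CPM in 1 MEK inhibitor library of PANC-1, where the median of alone libraries was 8.91 CPM, and was called in no PANC-1 comparison of the autophagy inhibitors or classes.

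Under the 14 kinase inhibitors, the Vps34 inhibitor lowered more members than it raised relative to hydroxychloroquine in AsPC-1. There, 13 of 38 members (34.2%) were called, 4 higher and 9 lower, against 31.1% of all genes (14.2% higher and 16.9% lower), so the share of members was near that of all genes. The median was −0.12 over the members and −0.03 over all genes. The 9 that fell were ATG12, ATG16L1 and ATG4B of conjugation, SNAP29 and RAB7A of fusion, UVRAG and BECN1 of the Vps34 complex, RB1CC1 of the ULK1 complex and WIPI2 of membrane growth, while VAMP8, VMP1, ATG10 and FYCO1 rose. This split rests on the scaling of libraries. With no scaling factors, 1 member was higher and 14 were lower, the median of all genes moved to −0.15, and all genes split into 1098 higher and 3624 lower in place of 1815 and 2153. ATG12 then stood at −0.48 and ATG16L1 at −0.68, both still below that median, whereas the rises of VAMP8 (0.05), VMP1 (0.03) and ATG10 (0.16) were no longer called. Counts of pairs below compare CPM without scaling factors, so in AsPC-1 they share this shift of all genes towards lower values. They were not set against the pairs of all genes.

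ATG12, the ubiquitin-like protein that is joined to ATG5, had 92.4, 127 and 230 CPM over 28 Vps34 inhibitor libraries and 137, 190 and 294 CPM over 28 hydroxychloroquine libraries of AsPC-1. Paired by drug and plate, it was lower with the Vps34 inhibitor in 28 of 28 pairs, though the ranges over all drugs overlapped. The log2 difference was −0.36 ± 0.04 (adjusted p = 1.45e-09), and −0.36 within plate A and −0.34 within plate B. ATG16L1, which places LC3 lipidation on the membrane, had 9.89, 24.0 and 82.6 CPM with the Vps34 inhibitor and 21.6, 36.2 and 113 CPM with hydroxychloroquine. It was lower in 27 of 28 pairs, by −0.56 ± 0.09 (adjusted p = 5.56e-07), with −0.51 in plate A and −0.62 in plate B. Both kept their calls in all 25 alternative settings tried for this comparison. ATG12 shares 378 exon bases with AP3S1 on the other strand, and AP3S1 differed by −0.14 ± 0.04 in the same comparison (adjusted p = 0.00753). ATG16L1 shares exon bases with no other gene of the table.

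Smaller differences in the same libraries lay in other steps. SNAP29, a SNARE that bridges autophagosome and lysosome, had 29.0, 42.9 and 68.1 CPM with the Vps34 inhibitor and 45.7, 56.6 and 82.3 CPM with hydroxychloroquine and was lower in 23 of 28 pairs (−0.28 ± 0.07, adjusted p = 0.000931). WIPI2, which reads PI3P and recruits ATG16L1, had 12.3, 30.9 and 47.9 CPM against 22.9, 43.4 and 53.8 CPM with hydroxychloroquine and was also lower in 23 pairs (−0.32 ± 0.08). UVRAG, a subunit of the Vps34 complex of endosomes, had 5.14, 16.0 and 30.6 CPM against 10.6, 24.3 and 36.5 CPM with hydroxychloroquine (−0.38 ± 0.11, adjusted p = 0.00507). In all 3 the ranges overlapped and most pairs were lower. ATG4B, the protease that primes LC3, was lower in 25 pairs (−0.33 ± 0.09) and RAB7A, the GTPase of late endosomes, in 26 (−0.17 ± 0.05). THAP4, which shares 237 exon bases with ATG4B on the other strand, fell by 0.48 ± 0.08, and PSME3, which shares 300 with BECN1, by 0.48 ± 0.05. BECN1 also shares 795 exon bases with CNTD1, whose 878 counts over all libraries were too few to compare. On the other strand as well, ATG10 shares 374 exon bases with RPS23, a gene of far higher counts that differed by 0.06 ± 0.04, and UVRAG 240 with UVRAG-DT, at 0.46 ± 0.29, neither called. VAMP8, the SNARE of lysosomes, had 214, 326 and 458 CPM with the Vps34 inhibitor and 204, 311 and 467 CPM with hydroxychloroquine, was higher in 18 of 28 pairs and differed by 0.17 ± 0.04 (adjusted p = 0.000459). Its call was lost without the plate A libraries of the combinations and within plate B (0.10). Within plate B alone, 2 of the 13 calls passed, ATG12 and ATG16L1, and leaving out either plate's combination libraries left 8 calls. Of all genes, 765 were called higher and 667 lower within plate B, of 11973 tested. BECN1 lost its call without AZD0364 or cobimetinib, FYCO1 without AZD0364 and RB1CC1 without SCH772984, and these 3 and ATG10 lost it without the combination libraries of either plate.

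PIK3C3, which encodes Vps34 itself, was not called in AsPC-1, at 0.17 ± 0.09 under kinase inhibitors (adjusted p = 0.14) and 0.24 ± 0.19 alone (adjusted p = 0.572). In PANC-1 it was slightly lower with the Vps34 inhibitor under kinase inhibitors, with 8.34, 12.8 and 20.9 CPM against 10.3, 14.4 and 31.3 CPM with hydroxychloroquine. It was lower in 24 of 28 pairs there, by −0.24 ± 0.08 (adjusted p = 0.0259). That call was lost within either plate, without the combination libraries of either plate, and without PLX8394.

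In PANC-1 under kinase inhibitors, 6 of 37 members (16.2%) were called, 4 higher and 2 lower with the Vps34 inhibitor, against 20.9% of all genes (9.86% higher and 11.0% lower). The median was 0.05 over the members and −0.01 over all genes. ULK1 had 11.2, 18.6 and 35.4 CPM over 28 Vps34 inhibitor libraries and 8.51, 12.6 and 24.9 CPM over 28 hydroxychloroquine libraries. It was higher in 25 of 28 pairs with overlapping ranges, by 0.52 ± 0.08 (adjusted p = 5.49e-06), with 0.42 in plate A (adjusted p = 0.112) and 0.62 in plate B. WDR45 had 5.58, 11.2 and 19.4 CPM against 3.55, 8.31 and 12.9 CPM with hydroxychloroquine and was higher in 27 pairs, by 0.52 ± 0.10 (adjusted p = 6.1e-05), close to its difference of 0.71 in the separate alone libraries. PRAF2 shares 757 exon bases with WDR45 on the same strand and differed by 0.51 ± 0.04 under kinase inhibitors and 0.47 ± 0.08 alone, both called, so reads from the shared bases cannot be told apart. ATG16L1 was lower in 21 pairs, with 12.6, 25.0 and 44.9 CPM against 18.7, 31.3 and 45.5 CPM with hydroxychloroquine (−0.32 ± 0.09, adjusted p = 0.0104). FYCO1, which couples autophagosomes to kinesin, was higher in 22 pairs (0.39 ± 0.13) and WIPI2 in 19 (0.17 ± 0.06). FYCO1 lost its call in 7 of 25 alternative settings (0.16 to 0.64), among them without dabrafenib, RAF709 or refametinib. WIPI2 lost it in 12 (0.11 to 0.22), among them without AZD0364, cobimetinib, PLX8394, RAF709, refametinib, SCH772984 or sorafenib. No call of this comparison passed within plate A, where 320 genes were called higher and 214 lower of 12176 tested.

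The Vps34 inhibitor effect under kinase inhibitors was also set against that in alone libraries. No member was called with edgeR or with DESeq2 in either line. Of all genes, edgeR called 0.0862% in AsPC-1 and 0.0% in PANC-1. At an unadjusted p under 0.05, a looser threshold, were 1 member in AsPC-1 and 3 members in PANC-1. ATG12 in AsPC-1 differed by −0.19 ± 0.10 between the settings (adjusted p = 0.78).

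**Figure D2:**
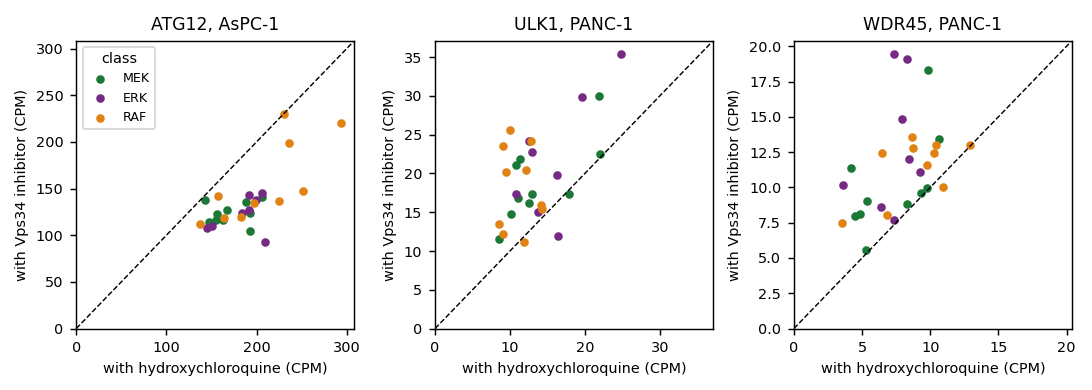
CPM with the Vps34 inhibitor (vertical) against CPM with hydroxychloroquine (horizontal) for the 28 pairs of libraries that share a kinase inhibitor and a plate, for ATG12 in AsPC-1 and for ULK1 and WDR45 in PANC-1; the line marks equal values. All 28 ATG12 pairs lie below the line, 25 of 28 ULK1 pairs and 27 of 28 WDR45 pairs lie above it.

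With MEK inhibitors, 11 of 38 members (28.9%) were called in AsPC-1, 2 higher and 9 lower, against 28.9% of all genes (12.9% higher and 16.1% lower), so the share of members was that of all genes. The median was −0.09 over the members and −0.05 over all genes. Conjugation genes fell in 5 of 10 cases (ATG12, ATG16L1, ATG3, ATG7 and ATG4B) with none higher, and their median was −0.29. Membrane growth had 2 of 8 lower (WDR45 and VMP1), transport and fusion 2 lower (PLEKHM1 and RAB7A) and 2 higher (VAMP8 and FYCO1), and the ULK1 and Vps34 complexes 0 of 5 and 0 of 7 genes. The steps hold few genes and were not tested against each other. ERK inhibitors gave 9 calls (23.7%), 1 higher and 8 lower, against 31.1% of all genes (13.7% higher and 17.4% lower), 4 of them in conjugation with a median of −0.24. All classes were compared with the same 12 alone libraries, so the class results below are not independent of each other.

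ATG12 had 104, 142 and 206 CPM over 20 libraries with MEK inhibitors and 92.4, 145 and 209 CPM over 16 with ERK inhibitors, against 217, 235 and 308 CPM over 12 alone libraries of AsPC-1. Every MEK and every ERK inhibitor library was below every alone library. The differences were −0.72 ± 0.06 for MEK inhibitors (adjusted p = 1.16e-15; −0.70 within plate A and −0.69 within plate B) and −0.66 ± 0.06 for ERK inhibitors (adjusted p = 1.41e-13; −0.62 and −0.65). With RAF inhibitors it had 112, 173 and 294 CPM over 20 libraries, 13 of them below every alone library, and fell by 0.47 ± 0.06 (adjusted p = 2.32e-08). Within plates the RAF difference was −0.40 and −0.46 and did not pass (adjusted p = 0.0948 and 0.0998). In these fits the RAF inhibitors served as replicates of each other. AP3S1, the neighbour that shares exon bases with ATG12, fell less, by 0.31 ± 0.06 with MEK, 0.14 ± 0.06 with ERK (adjusted p = 0.0678, not called) and 0.22 ± 0.06 with RAF inhibitors. This difference between the genes was not tested.

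The ATG12 fall was seen under both autophagy inhibitors. With the Vps34 inhibitor it had 104, 124 and 141 CPM with MEK and 92.4, 125 and 145 CPM with ERK inhibitors, against 217, 223 and 238 CPM alone. With hydroxychloroquine it had 142, 165 and 206 CPM with MEK and 145, 191 and 209 CPM with ERK inhibitors, against 233, 264 and 308 CPM alone. The groups did not overlap in any of these 4 comparisons. The class effect with the Vps34 inhibitor minus that with hydroxychloroquine was −0.18 ± 0.12 for MEK (adjusted p = 0.855) and −0.26 ± 0.13 for ERK inhibitors (adjusted p = 0.501).

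ATG16L1 followed the same order. It had 15.3, 27.3 and 71.8 CPM with MEK and 9.89, 27.8 and 50.8 CPM with ERK inhibitors, against 45.7, 70.0 and 105 CPM alone. Of 20 MEK inhibitor libraries 19, and of 16 ERK inhibitor libraries 14, were below every alone library. The falls were 1.35 ± 0.11 (adjusted p = 2.54e-15) and 1.39 ± 0.12 (adjusted p = 8.09e-15) on the log2 scale, and within plates they were 1.35 and 1.26 for MEK and 1.32 and 1.37 for ERK inhibitors. RAF inhibitors gave 19.0, 47.3 and 113 CPM, with 9 of 20 libraries below and 1 above every alone library, and a fall of 0.55 ± 0.11 (adjusted p = 0.000438). This last call did not pass within plate A (−0.54), within plate B (−0.35) or with drugs taken as replicates. By autophagy inhibitor, MEK inhibitors gave 15.3, 23.0 and 28.5 CPM with the Vps34 inhibitor, against 45.7, 58.5 and 73.2 CPM alone, and 25.8, 31.6 and 71.8 CPM with hydroxychloroquine, against 56.6, 93.6 and 105 CPM alone. The MEK effect did not differ detectably between them (0.00 ± 0.28).

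Of the other conjugation genes, ATG3, the enzyme that attaches LC3 to lipid, had 40.0, 48.5 and 107 CPM with MEK and 32.6, 48.6 and 67.2 CPM with ERK inhibitors, against 55.2, 62.3 and 74.6 CPM alone. It was below every alone library in 14 of 20 and 12 of 16 libraries, and fell by 0.26 ± 0.08 and 0.33 ± 0.08. Within plates neither call passed. SLC35A5, which shares 151 exon bases with ATG3 on the other strand, differed by −0.03 ± 0.25 with MEK inhibitors, without a call. ATG4B had 20.3, 30.7 and 45.9 CPM with MEK and 11.5, 29.3 and 52.1 CPM with ERK inhibitors, against 31.1, 38.3 and 53.8 CPM alone, with falls of 0.33 ± 0.11 and 0.48 ± 0.12. Its MEK call was lost without cobimetinib, hydroxychloroquine alone library 1 or Vps34 inhibitor alone library 5. THAP4, its neighbour on the other strand, fell by 0.52 ± 0.11 and 0.35 ± 0.11. ATG7, the enzyme that activates both ubiquitin-like systems, fell by 0.68 ± 0.22 with MEK inhibitors (adjusted p = 0.0144) and differed by −0.55 ± 0.23 with ERK inhibitors (adjusted p = 0.0626). ATG5, ATG10, ATG4A, ATG4C and ATG4D were not called for any class in AsPC-1.

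At the fusion step VAMP8 went the other way. It had 231, 337 and 409 CPM with MEK and 262, 352 and 467 CPM with ERK inhibitors, against 213, 265 and 303 CPM alone in AsPC-1. It was above every alone library in 14 of 20 and 13 of 16 libraries. The rises were 0.39 ± 0.06 (adjusted p = 4.97e-08; 0.42 and 0.40 within plates) and 0.51 ± 0.06 (adjusted p = 7.45e-11; 0.56 and 0.51 within plates). RAF inhibitors gave 204, 271 and 345 CPM and no call. PLEKHM1, an adaptor between RAB7A, LC3 and the tethering complex HOPS, had 1.45, 6.15 and 17.7 CPM with MEK and 3.08, 8.12 and 13.3 CPM with ERK inhibitors, against 8.37, 12.5 and 18.3 CPM alone. It fell by 0.98 ± 0.19 and 0.69 ± 0.19, with overlapping ranges, and the MEK value did not pass within plate B (−0.66). RAB7A had 103, 129 and 161 CPM with MEK and 107, 131 and 188 CPM with ERK inhibitors, against 135.7, 166 and 197 CPM alone, and fell by 0.30 ± 0.06 and 0.24 ± 0.06. The MEK call did not pass within plate A (−0.24), and the ERK value was −0.12 within plate A (adjusted p = 0.433) and −0.32 within plate B (adjusted p = 0.0517), neither called. FYCO1 lay between 1.16 and 12.5 CPM with MEK inhibitors, against 0 to 4.47 CPM alone, and its rise of 1.03 ± 0.39 rests on under 10 counts per library and was lost in 12 of 27 alternative settings, among them without binimetinib or any 1 of 7 alone libraries (hydroxychloroquine 2, 3, 4 and 5, Vps34 inhibitor 3, 5 and 6).

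In membrane growth, VMP1, an endoplasmic reticulum protein that moves lipids between membrane leaflets, had 187, 244 and 325 CPM with MEK and 175, 234 and 332 CPM with ERK inhibitors, against 259, 300 and 367 CPM alone in AsPC-1. It was below every alone library in 13 of 20 and 11 of 16 libraries and fell by 0.26 ± 0.06 (adjusted p = 0.00057) and 0.30 ± 0.06 (adjusted p = 0.000164). The MEK call was lost without the plate term, without the plate A combination libraries and within plate B (−0.19). PTRH2 shares 162 exon bases with VMP1 on the other strand and fell by 0.53 ± 0.16 with MEK inhibitors. WDR45 had 2.89, 7.68 and 14.8 CPM with MEK and 1.48, 8.47 and 12.4 CPM with ERK inhibitors, against 6.09, 14.1 and 19.8 CPM alone. It fell by 0.78 ± 0.16 and 0.85 ± 0.17 with overlapping ranges, and the MEK value did not pass within plate B (−0.75) nor the ERK value within plate A (−0.56). PRAF2, whose exons overlap those of WDR45, differed by −0.70 ± 0.31 and −0.19 ± 0.32, neither called. RAF inhibitors gave 2 calls in AsPC-1 (5.26% of members, against 8.66% of all genes), both lower, namely ATG12 and ATG16L1, and 4 members were called without sorafenib.

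Initiation genes were not called for any class in either line. With MEK, ERK and RAF inhibitors, 28.9%, 31.1% and 8.66% of all genes were called in AsPC-1 and 18.5%, 14.1% and 0.539% in PANC-1. Single drugs did give calls. ULK1 rose with AZD0364 in AsPC-1 and with trametinib and ulixertinib in PANC-1. ATG101, with under 10 counts per library, fell with binimetinib in PANC-1 (−2.50). In AsPC-1, ULK1 had 2.21, 6.39 and 16.5 CPM with MEK and 1.64, 9.23 and 15.2 CPM with ERK inhibitors, against 3.28, 6.11 and 12.2 CPM alone, with differences of 0.17 ± 0.25 and 0.50 ± 0.26. At these counts a change of that size was not detectable. ATG13, the adaptor of ULK1, which shares 329 exon bases with HARBI1 on the other strand, had 40.5, 64.1 and 103 CPM with MEK inhibitors, against 48.5, 57.9 and 72.1 CPM alone, and differed by 0.14 ± 0.10. PIK3C3 had 18.4, 24.4 and 31.4 CPM with MEK inhibitors, against 15.3, 24.9 and 35.4 CPM alone, and differed by −0.01 ± 0.12 with MEK, −0.12 ± 0.13 with ERK and −0.11 ± 0.12 with RAF inhibitors. In PANC-1, PIK3C3 differed by −0.15 ± 0.11, −0.11 ± 0.11 and 0.03 ± 0.11, and RB1CC1, the scaffold of the ULK1 complex, by 0.35 ± 0.15 with MEK inhibitors (adjusted p = 0.0954). Over the 3 classes, 1 gene of the Vps34 complex in AsPC-1 (ERK inhibitors) and 2 of the ULK1 complex in PANC-1 (MEK inhibitors) had an unadjusted p under 0.05, and none of either complex was called with edgeR; DESeq2 called 0 of them.

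**Figure D3:**
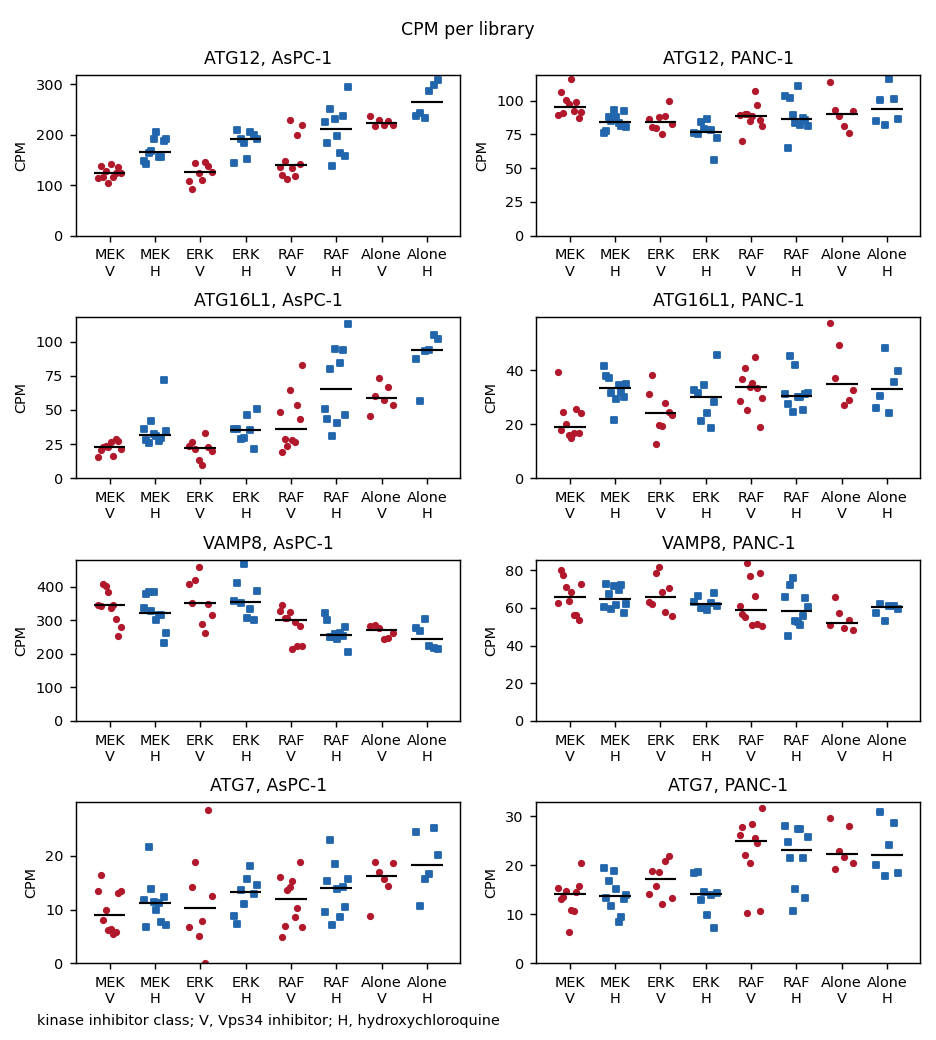
CPM of ATG12, ATG16L1, VAMP8 and ATG7 in every library of AsPC-1 and PANC-1, by MEK, ERK and RAF inhibitors and alone, with the Vps34 inhibitor left of hydroxychloroquine in each; bars are medians. In AsPC-1 the ATG12 values with MEK and ERK inhibitors, 92.4 to 209, lie below all alone values, 217 to 308, and in PANC-1 the ATG7 median is 13.8 with MEK inhibitors and 22.3 alone.

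In PANC-1, MEK inhibitors changed 6 of 37 members (16.2%), 2 higher and 4 lower, against 18.5% of all genes (7.9% higher and 10.6% lower). The median was −0.02 over the members and over all genes. ERK inhibitors changed 4 (10.8%), 1 higher and 3 lower, against 14.1% of all genes (5.45% higher and 8.68% lower). RAF inhibitors changed 0 of 37 by edgeR, against 0.539% of all genes, while 3 members had an unadjusted p under 0.05, DESeq2 called 0, and 1 was called without dabrafenib. Within plate A, 1 MEK call and 0 ERK calls passed, and within plate B 2 and 1. Of 12176 genes within plate A, 278 were higher and 411 lower with MEK, and 182 and 293 with ERK inhibitors. Of 11761 within plate B, these were 355 and 500, and 169 and 342.

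ATG7 led in PANC-1. It had 6.42, 13.8 and 20.4 CPM with MEK, 7.32, 14.4 and 21.8 CPM with ERK and 10.3, 24.6 and 31.6 CPM with RAF inhibitors, against 17.8, 22.3 and 30.8 CPM alone. Of 20 MEK inhibitor libraries 17 were below every alone library, as were 10 of 16 with ERK inhibitors. It fell by 0.80 ± 0.12 with MEK inhibitors (adjusted p = 1.15e-06; 0.73 and 0.86 within plates) and by 0.67 ± 0.13 with ERK inhibitors (adjusted p = 8.97e-05; 0.53 within plate A, which did not pass, and 0.79 within plate B). The MEK call held in all 28 alternative settings tried. VGLL4, which shares 1596 exon bases with ATG7 on the other strand, rose by 0.53 ± 0.09 with MEK inhibitors, opposite in sign to ATG7.

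ATG16L1 in PANC-1 had 15.0, 27.4 and 41.4 CPM with MEK and 12.6, 26.2 and 45.5 CPM with ERK inhibitors, against 24.2, 34.3 and 57.3 CPM alone. The ranges overlapped, and it fell by 0.47 ± 0.12 (adjusted p = 0.00466) and 0.49 ± 0.13 (adjusted p = 0.00682), with no call within either plate, and without SCH772984 the ERK call was lost. ATG12 had 90.0 CPM in the median with MEK and 79.8 CPM with ERK inhibitors, against 90.3 CPM alone, and fell with ERK inhibitors, by 0.24 ± 0.07 (adjusted p = 0.00933), a call lost within either plate. SNAP29 had 57.3, 84.3 and 114 CPM with MEK and 77.3, 90.6 and 118 CPM with ERK inhibitors, against 58.3, 72.5 and 84.2 CPM alone. It was above every alone library in 10 of 20 and 12 of 16, and rose by 0.21 ± 0.07 and 0.32 ± 0.07 (adjusted p = 0.0278 and 0.00136). VAMP8 had 53.7, 65.4 and 80.3 CPM with MEK inhibitors, against 48.5, 57.3 and 65.8 CPM alone, and rose by 0.20 ± 0.06. The MEK calls of SNAP29 and VAMP8 were lost in 11 and 10 of 28 alternative settings, in which the differences ran from 0.17 to 0.24 and from 0.16 to 0.23. These settings include leaving out hydroxychloroquine alone library 3, Vps34 inhibitor alone library 1 or cobimetinib for both genes, Vps34 inhibitor alone library 4 or 6 or trametinib for SNAP29, and refametinib for VAMP8. PI4KA, which shares 225 exon bases with SNAP29 on the other strand, differed by −0.18 ± 0.12 with MEK and −0.36 ± 0.13 with ERK inhibitors, without a call. WDR45 fell by 0.49 ± 0.13 and PLEKHM1 by 0.65 ± 0.19 with MEK inhibitors. WDR45 stood at −0.20 within plate A (adjusted p = 0.71) and −0.67 within plate B, and PLEKHM1 at −0.81 and −0.43, neither called. PRAF2, which shares exon bases with WDR45, rose by 0.19 ± 0.05 in that comparison.

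The class effect with the Vps34 inhibitor was set against that with hydroxychloroquine for every member. No member was called with edgeR in either line. Of all genes in AsPC-1, edgeR called 0.094% for the MEK, 0.313% for the ERK and 0.0% for the RAF difference. DESeq2 called 1 member for MEK inhibitors (TECPR1), where it called 26 genes higher and 14 lower of 12761, and 0 members for ERK or RAF. At an unadjusted p under 0.05, a looser threshold than that of these calls, were 1, 4 and 1 members. In PANC-1 the MEK, ERK and RAF differences had 2, 1 and 3 members at such a p, none called by DESeq2. There edgeR called 0.0%, 0.0% and 0.0% of all genes. ATG16L1 in PANC-1 had the MEK effect lower with the Vps34 inhibitor by 0.80 ± 0.25 on the log2 scale, which was not called (unadjusted p = 0.0026, adjusted p = 0.576).

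Counts of members called for single drugs are given beside the share of all genes called for the same drug, with no test between drugs. Among MEK inhibitors in AsPC-1, trametinib and cobimetinib each changed 6 of 38 members, against 15.4% and 16.0% of all genes, binimetinib 5 against 16.1%, selumetinib 4 against 7.44% and refametinib 5 against 17.6%. Among ERK inhibitors, SCH772984 changed 7 against 17.5%, ulixertinib 5 against 21.3%, AZD0364 4 against 18.5% and ravoxertinib 6 against 14.7%. Among RAF inhibitors, RAF709 changed 5 against 12.7% of all genes, GDC-0879 2 against 10.9%, dabrafenib 2 against 3.05%, PLX8394 0 against 0.76% and sorafenib 0 against 0.102%. Each drug had 4 libraries and shares the 12 alone libraries, and with 1 plate's combination libraries left out the calls summed over drugs were 40 and 41 in place of 57.

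ATG12 was called for 12 of the 14 drugs in AsPC-1, all lower. With AZD0364, where it fell most, it had 108 and 110 CPM with the Vps34 inhibitor and 145 and 151 CPM with hydroxychloroquine, on plates A and B, and fell by 0.88 ± 0.10. With sorafenib it had 230 and 220 CPM with the Vps34 inhibitor and 230 and 294 CPM with hydroxychloroquine, all within the alone range of 217 to 308 CPM, and differed by −0.01 ± 0.09. With PLX8394 the Vps34 inhibitor libraries had 147 and 199 CPM, below every alone library, and the hydroxychloroquine libraries 252 and 236 CPM, within the range of hydroxychloroquine alone libraries, and the difference of −0.24 ± 0.10 did not pass (adjusted p = 0.35). RAF709 (−0.79), GDC-0879 (−0.76) and dabrafenib (−0.54) were the RAF inhibitors with a call.

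ATG16L1 was also called for 12 of 14 drugs, the same 12 as ATG12. With cobimetinib it had 20.8 and 16.4 CPM with the Vps34 inhibitor and 27.9 and 27.4 CPM with hydroxychloroquine, and fell by 1.62 ± 0.20. With sorafenib it had 64.3 and 82.6 CPM with the Vps34 inhibitor and 94.9 and 113 CPM with hydroxychloroquine, and differed by 0.26 ± 0.18. With PLX8394 it had 28.9 and 53.8 CPM and 79.8 and 94.0 CPM in the same order, and differed by −0.27 ± 0.18. Sorafenib and PLX8394 were thus the drugs with no call for either gene. VAMP8 rose with 8 of 14 drugs, most with ulixertinib (0.70), where it had 458 and 314 CPM with the Vps34 inhibitor and 467 and 386 CPM with hydroxychloroquine, all above the highest alone library at 303 CPM. The 8 were 4 of 5 MEK inhibitors, all but selumetinib, and all 4 ERK inhibitors. RAB7A fell with 5 drugs, PLEKHM1 and WDR45 with 4 each and VMP1 with 3. STX17 rose with SCH772984 (0.91) and RAF709 (0.94), and ULK1 with AZD0364 (1.02).

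In PANC-1, trametinib changed 3 of 37 members against 13.6% of all genes, cobimetinib 4 against 8.64%, binimetinib 2 against 7.27%, selumetinib 1 against 3.71% and refametinib 1 against 6.49%. SCH772984 changed 2 against 6.88%, ulixertinib 3 against 14.6%, AZD0364 1 against 5.24% and ravoxertinib 1 against 4.36%. RAF709 changed 3 against 8.47%, while sorafenib (0.0871%), dabrafenib (0.0871%), PLX8394 (0.143%) and GDC-0879 (0.42%) changed 0. These 21 calls came down to between 3 and 6 with 1 plate's combination libraries left out. ATG7 was called for 9 of 14 drugs, all lower, which were the 5 MEK inhibitors, SCH772984, ulixertinib, AZD0364 and RAF709. With RAF709 it had 10.3 and 10.6 CPM with the Vps34 inhibitor and 10.6 and 13.3 CPM with hydroxychloroquine, all below the lowest alone library at 17.8 CPM, and fell by 1.10 ± 0.21. With dabrafenib it had 26.2 and 28.4 CPM with the Vps34 inhibitor and 27.9 and 27.5 CPM with hydroxychloroquine, and differed by 0.21, with no call. ULK1 rose with trametinib (0.55 ± 0.17) and ulixertinib (0.74 ± 0.17). With ulixertinib it had 35.4 and 29.8 CPM with the Vps34 inhibitor and 24.9 and 19.6 CPM with hydroxychloroquine, against at most 21.5 CPM alone.

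**Figure D4:**
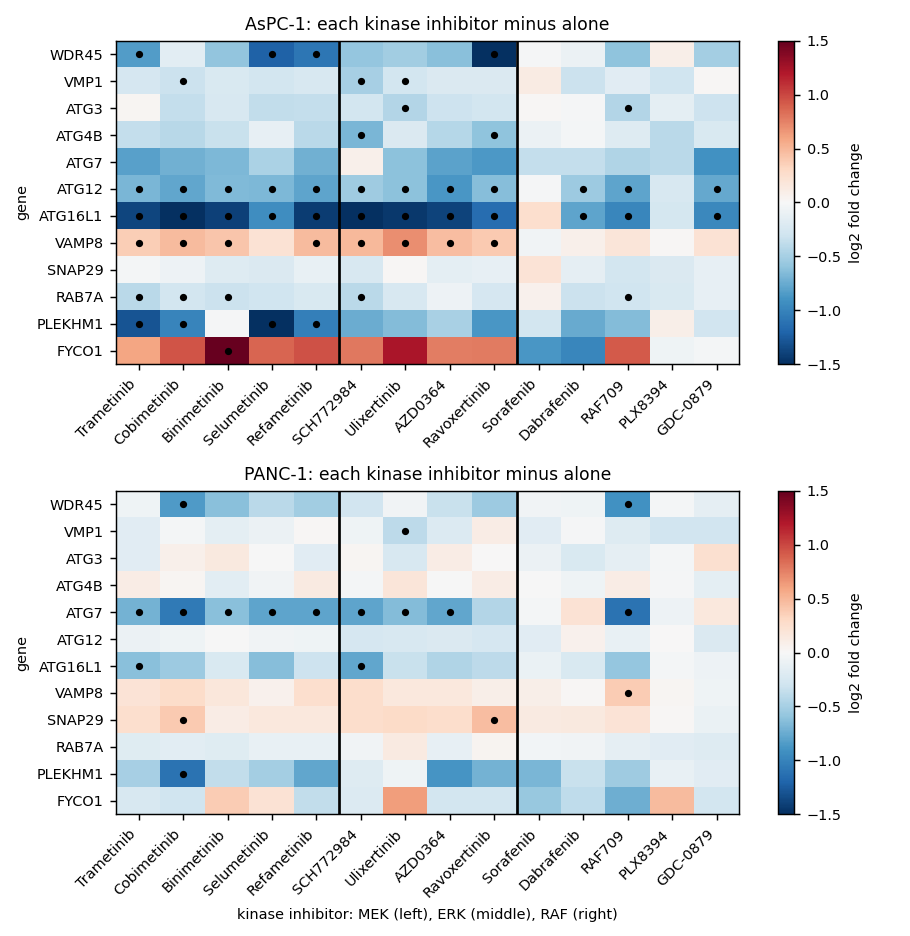
Log2 fold changes against alone libraries, by drug, for the 12 members called in a class comparison of either line, in AsPC-1 and PANC-1. Colour is the log2 fold change and dots mark calls; ATG12 and ATG16L1 carry dots for 12 of 14 drugs in AsPC-1, with none for sorafenib and PLX8394, and ATG7 carries dots for 9 of 14 in PANC-1.

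The lines differed in several of these responses, tested as AsPC-1 effect minus PANC-1 effect in 1 fit of both. For the Vps34 inhibitor against hydroxychloroquine under kinase inhibitors, 10 of 38 members differed, 2 higher and 8 lower in AsPC-1, against 15.8% of all genes. ATG12 differed by −0.45 ± 0.06 (adjusted p = 3.35e-08), with the Vps34 inhibitor lower in 28 of 28 pairs in AsPC-1 and in 7 of 28 in PANC-1. ULK1 differed by −0.85 ± 0.19 (adjusted p = 0.000601), lower in 22 pairs in AsPC-1 and in 3 in PANC-1. WDR45 differed by −0.82 ± 0.16 and WIPI2 by −0.47 ± 0.10. Within AsPC-1 itself, neither ULK1 nor WDR45 was called for the Vps34 inhibitor under kinase inhibitors. These pair counts rest on CPM without scaling factors. The neighbours PRAF2 of WDR45 (−1.03 ± 0.17), THAP4 of ATG4B (−0.36 ± 0.10) and AP3S1 of ATG12 (−0.26 ± 0.07) also differed. VMP1 (0.25 ± 0.06) and PIK3C3 (0.43 ± 0.12) were the members with a higher effect in AsPC-1, and both calls were lost with no scaling factors (0.10 and 0.27), which moved the median of all genes in this comparison to −0.16 and gave 0 higher and 12 lower members. PLEKHM1, ATG4B and RB1CC1 also differed, and ATG9A differed on under 10 counts per library. Between the autophagy inhibitors alone, WDR45 differed by −1.12 ± 0.32 (adjusted p = 0.0359), as 1 of 38, against 2.51% of all genes. That call was lost without the plate term and with no filter on low counts.

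For MEK inhibitors 3 of 38 members differed between the lines, against 11.4% of all genes, namely ATG12 (−0.66 ± 0.09, adjusted p = 3.08e-09), ATG16L1 (−0.88 ± 0.18, adjusted p = 0.000124) and SNAP29 (−0.34 ± 0.11, adjusted p = 0.0411). All had a lower effect in AsPC-1, and the SNAP29 call was lost with RLE factors, with no filter on low counts and without the plate term. AP3S1, the neighbour of ATG12, differed by −0.33 ± 0.09. For ERK inhibitors 5 differed, against 13.9% of all genes. ATG16L1 (−0.90 ± 0.19), ATG12 (−0.42 ± 0.09), SNAP29 (−0.44 ± 0.12) and ATG4B (−0.55 ± 0.15) had a lower effect in AsPC-1, and VAMP8 (0.34 ± 0.09) a higher one. With no scaling factors 8 members differed for ERK inhibitors. For RAF inhibitors 1 member differed, ATG12 (−0.38 ± 0.09, adjusted p = 0.00732), against 1.68% of all genes. ATG7 was not called as a difference between the lines, at 0.11 ± 0.25 for MEK inhibitors (adjusted p = 0.899). Base levels of the lines cannot be told apart from plates and were not compared.

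**Figure D5:**
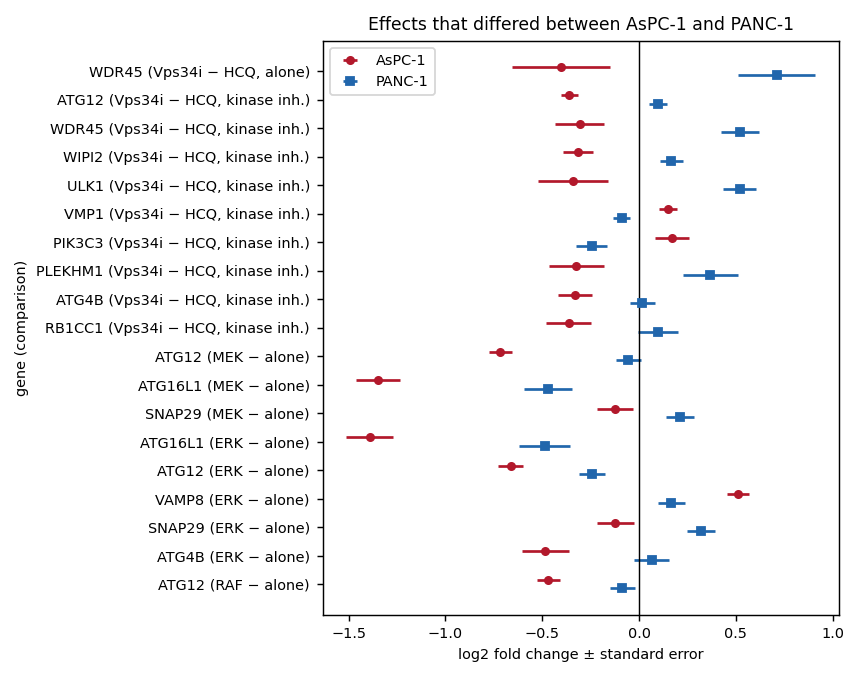
Log2 fold changes ± standard error of members whose effect differed between the lines, with AsPC-1 above PANC-1, for the Vps34 inhibitor against hydroxychloroquine and for each kinase inhibitor class. ATG12 with MEK inhibitors stands at −0.72 ± 0.06 in AsPC-1 and −0.06 ± 0.06 in PANC-1; ATG9A, with under 10 counts per library, is left out.

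Genes around the core machinery were followed through 5 lists. Of ATG8 proteins and cargo receptors, 7 of 14 tested rose with MEK and 9 with ERK inhibitors in AsPC-1 and none fell, while 12.9% and 13.7% of all genes were called higher, with list medians of 0.35 and 0.40 against −0.05 and −0.06 over all genes. SQSTM1, a receptor for ubiquitinated cargo, rose by 0.53 ± 0.07 and 0.79 ± 0.07, and GABARAP, a relative of LC3, by 0.54 ± 0.08 and 0.70 ± 0.08. In PANC-1, 6 of 16 rose with MEK and 5 with ERK inhibitors and none fell, while 7.9% and 5.45% of all genes were called higher, with medians of 0.16 and 0.21 against −0.02 over all genes, GABARAP by 0.49 ± 0.06 with MEK inhibitors. RAF inhibitors raised 2 in AsPC-1 (SQSTM1 and GABARAP) and 0 in PANC-1, while 478 of 12761 and 13 of 12627 genes were called higher. These genes encode what the conjugation enzymes lipidate and the receptors for what autophagosomes carry.

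Between the autophagy inhibitors under kinase inhibitors, 14.2% of all genes were called higher and 16.9% lower in AsPC-1, and 9.86% higher and 11.0% lower in PANC-1, as the background of all list counts for that comparison. The list of ATG8 proteins and receptors had 2 of 14 higher and 4 lower in AsPC-1, with MAP1LC3B, an LC3 gene, lower by 0.60 ± 0.08, and 7 of 16 higher and 0 lower in PANC-1, with SQSTM1 higher by 0.38 ± 0.05. In alone libraries MAP1LC3B fell in AsPC-1 (−0.54 ± 0.17) and SQSTM1 rose in PANC-1 (0.40 ± 0.10), as 1 gene each. Of 11 MiT/TFE and FOXO regulators, which control lysosome and autophagy genes, 4 rose with MEK inhibitors in AsPC-1 (12.9% of all genes higher), among them RRAGC (0.42 ± 0.10) and MITF (0.77 ± 0.25), and 1 in PANC-1 (7.9% of all genes). Under kinase inhibitors 5 of them fell and 0 rose with the Vps34 inhibitor in AsPC-1, RRAGC by 0.44 ± 0.07, against 1 and 1 in PANC-1. Of mTORC1 and AMPK genes, 1 of 16 rose and 6 fell with the Vps34 inhibitor under kinase inhibitors in AsPC-1, while 3 of 14 rose and 0 fell in PANC-1. SESN2, a stress-induced inhibitor of mTORC1, fell by 1.13 ± 0.16 in AsPC-1 and rose by 1.30 ± 0.11 in PANC-1 in these libraries, and differed by −1.28 ± 0.34 and 1.38 ± 0.23 in alone libraries, both called.

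Of HOPS subunits and other fusion partners, 3 of 17 rose and 1 fell with MEK inhibitors in AsPC-1, where 12.9% of all genes rose and 16.1% fell, with VPS41 of HOPS higher by 0.40 ± 0.09 and the SNARE YKT6 lower by 0.39 ± 0.09. The Vps34 inhibitor under kinase inhibitors raised 2 and lowered 4 there, again with VPS41 higher (0.45 ± 0.07) and YKT6 lower (−0.42 ± 0.07), and raised 5 of 16 and lowered 0 in PANC-1, VPS18 by 0.33 ± 0.07. Among PI3P effectors and phosphatases, 1 of 11 rose and 3 fell with the Vps34 inhibitor under kinase inhibitors in AsPC-1, and 2 of 12 rose in PANC-1. MEK inhibitors raised 1 of 11 in AsPC-1 and lowered 1 of 12 in PANC-1, MTMR14, a PI3P phosphatase, where 10.6% of all genes fell. No list was tested as a set.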

How the data were processed

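Expression was measured by PLATE-Seq in 136 libraries of 2 cell lines. The authors deposited whole-number counts per gene symbol, not normalized, as the values of the file show. Per the submitters' processing notes, kallisto 0.44.0 and GRCh38 were used; the role of either is not given, nor are the strand setting, the transcript set or how transcripts were summed to genes. Titles gave each library's line and treatment, and a code with PSA or PSB. Its last letter was taken as the plate, a word that the titles do not use. Each line had its own plates A and B, over which every treatment was split equally. Whether libraries came from separate cultures is not stated, so p-values measure the spread between wells.

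Each line was fitted over its 68 libraries in 30 treatment groups by the robust quasi-likelihood method of edgeR 4.0.16 with plate as a term, TMM scaling and filterByExpr on treatment groups, which left 37 residual degrees of freedom and 12761 genes tested in AsPC-1, 12627 in PANC-1. Drug groups of a class were averaged and set against the alone groups, giving both autophagy inhibitors equal weight, so a class stands for these drugs. Line differences came from 1 fit of both lines (13960 genes). Tests were two-sided, with Benjamini-Hochberg adjustment per comparison and a threshold of 0.05. Libraries on the same plate deviated together only in part, with a median correlation over 435 pairs of treatments of 0.0511 (AsPC-1) and 0.0736 (PANC-1). The plate was read from the code in the titles. The precision of each value is limited by its count, and standard errors cover the spread between libraries. Positions, shared exons and pseudogenes came from GENCODE v29, in which 23946 of 25435 symbols were found, and promoters from RefSeq. DESeq2 1.42.0, other scalings and filters, no plate term, each plate alone (also with drugs as replicates), drugs as replicates over both plates and left-out libraries and drugs were alternatives. Fits were run on simulated counts with changes of 1 on the log2 scale, the same spread for every gene and no plate effect. These runs do not cover smaller changes or spread between drugs. Per comparison, values by library are given for up to 8 called members with the smallest adjusted p, and the others by counts and ranges; single drugs and uncalled members were chosen after their values were seen. The members and lists were chosen with earlier results of these data known. R 4.3.3, Python 3.11.15, pandas 2.3.3 and matplotlib 3.10.9 were used.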

Additional observations from a re-analysis of the deposited data

Results flagged for a closer look

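Values of single members in the 6 alone libraries of 1 line and autophagy inhibitor were tested for a library far from the others. Of 68 such sets 3 were picked out, where chance alone gives about 1 in 20. Sets of different members shared the same libraries. ATG16L1 had 56.6 CPM in hydroxychloroquine alone library 2 of AsPC-1, while the other 5 had 87.0 to 105 CPM. ATG9A, a lipid scramblase of autophagy vesicles, had 7.83 CPM in hydroxychloroquine alone library 3 of AsPC-1, against 0 to 2.13 CPM in the others, and 3.11 CPM in library 6 of PANC-1, against 0 to 0.836 CPM. Both ATG9A values rest on few counts.

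Effects that differed between the lines by the test of the difference (AsPC-1 minus PANC-1, log2) were picked out as well. Between the autophagy inhibitors alone this was WDR45 (−1.12). Under kinase inhibitors these were ATG12 (−0.45), RB1CC1 (−0.45), ULK1 (−0.85), WDR45 (−0.82), PLEKHM1 (−0.68), WIPI2 (−0.47), ATG4B (−0.34) and ATG9A (−3.27), all lower in AsPC-1, and PIK3C3 (0.43) and VMP1 (0.25), both higher. For MEK inhibitors these were ATG12 (−0.66), ATG16L1 (−0.88) and SNAP29 (−0.34). For ERK inhibitors these were ATG16L1 (−0.90), ATG4B (−0.55), SNAP29 (−0.44), ATG12 (−0.42) and VAMP8 (0.34). For RAF inhibitors this was ATG12 (−0.38).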

How the results depend on the processing

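Over the 72 calls of members outside the single drugs, none changed sign in any setting run, and of 1497 values under alternative settings 1319 were called and 178 were not. Counts of members called that moved by over 1.5 times, or between 0 and another count, were as follows, and smaller moves are left out. For the Vps34 inhibitor against hydroxychloroquine alone in AsPC-1, 0 became 1 with DESeq2, 2 with the alone libraries only, 1 with a mean CPM of at least 5 and 2 with no scaling factors, and leaving out 1 library gave 0 to 2. In PANC-1, 1 became 0 with drugs as replicates, with no filter on low counts, without the replicate block and within either plate, and leaving out 1 library gave 0 to 1. Under kinase inhibitors, 13 in AsPC-1 became 2 within plate B (8 to 15 with libraries or drugs left out), and 6 in PANC-1 became 0 within plate A and 3 within plate B (2 to 7). Calls of all genes fell as well. In AsPC-1, 1815 higher and 2153 lower of 12761 became 765 and 667 of 11973 within plate B. In PANC-1, 1245 and 1393 of 12627 became 320 and 214 of 12176 within plate A and 602 and 594 of 11761 within plate B. For MEK inhibitors, 11 in AsPC-1 became 6 within plate A and 4 within plate B (8 to 11), and 6 in PANC-1 became 1 and 2 (2 to 7). For ERK inhibitors, 9 in AsPC-1 became 4 within plate B (9 to 11), and 4 in PANC-1 became 0 within plate A and 1 within plate B (1 to 5). For RAF inhibitors, 2 in AsPC-1 became 1 with drugs as replicates and 0 within either plate (2 to 4), and 0 in PANC-1 ran from 0 to 1. The MEK effect between autophagy inhibitors in AsPC-1 went from 0 to 1 with DESeq2. Calls summed over single drugs ran from 40 to 41 in AsPC-1 (57 in all) and from 3 to 6 in PANC-1 (21 in all). Between the lines, 1 call for the autophagy inhibitors alone became 0 with no filter on low counts and without the replicate block, and 5 for ERK inhibitors became 8 with no scaling factors. Of all genes, 188 higher and 163 lower became 158 and 122, and 124 and 130, in the first 2 settings. For ERK inhibitors, 895 and 1046 became 712 and 1429.

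Without the replicate block (plate), 12 of 13 calls were shared under kinase inhibitors, 10 of 11 with MEK, 9 of 9 with ERK and 2 of 2 with RAF inhibitors in AsPC-1, and 6 of 6, 5 of 6, 4 of 4 and 0 of 0 in PANC-1, with none gained; the cause of the losses was not tested. A fit within 1 plate or without its libraries uses fewer libraries. Within 1 plate the drugs of a class also served as replicates, so the spread between drugs entered the error. The part of this in the calls lost there was not tested. Refits with libraries left out kept the gene set and dispersion trend of the full fit. Leaving out alone libraries was not run for single drugs, nor leave-one-out for the line differences. Members with under 10 counts per library allow no small change to be seen.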
